A study of Homo sapiens with 15 samples.

Results

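Integrins and cadherins are the main receptors by which a cell holds on to matrix and to its neighbours. The genes described here are those on the array whose annotated symbol fits a fixed form, each represented by its brightest probe set. The form is ITGA with a number or with V, L, M, X, D or E alone, ITGB1 to ITGB8, or CDH with a number. Other symbols of integrin chains, such as ITGA2B, lie outside it. The rule gave 45 of 17687 genes, namely 16 integrin alpha, 8 integrin beta and 21 cadherin genes. Of the cadherins, 17 belong to the classical types I and II, and the other 4 (CDH16, CDH17, CDH23 and CDH26) do not, so the set is somewhat wider than classical cadherins. ITGA1, CDH4 and CDH13 were not analysed here. Membership was set by gene symbol and not by values, but the set was chosen with earlier results of these data known.

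An integrin is a pair of an alpha and a beta chain, both of which cross the membrane. The alpha chain largely sets the ligand: some pairs bind collagen, some laminin, and others the RGD motif of fibronectin and related proteins, while the short tails connect to talin, kindlin and actin. Many alpha chains pair with the beta chain of ITGB1 alone, whereas the product of ITGAV pairs with several beta chains, and that of ITGB8 is known to pair only with the ITGAV chain, a receptor known for activating latent TGF-beta. Classical cadherins bind cadherins of the adjacent cell in the presence of calcium and hold catenins at their tails. CDH2 (N-cadherin) and CDH11 are the cadherins typical of mesenchymal cells, and loss of fibronectin receptors is known to accompany the change of preadipocytes into fat cells.

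All arrays came from ASC52htert, a human mesenchymal stem cell line of adipose origin immortalised with telomerase, so the 3 groups represent 1 line. Cells of every group began in MesenPRO RS medium. After 3 days, the DED group was taken through 14 days of StemPRO adipogenic differentiation and then spent 7 days in RPMI with 10% FBS conditioned by human breast cancer cells of the line MDA-MB-231. The MA group, the mature adipocytes, had the same differentiation followed by 7 days in RPMI with 10% FBS that was not conditioned. The MSC group was the line without differentiation. The sources used here leave its later medium and its age at harvest unstated, so culture time and medium cannot be told apart from differentiation in any comparison with MSC. Each group had 5 arrays. The labels do not say whether these were separate cultures, so the p-values cover the spread between arrays, which may be technical.

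Values are RMA log2 intensities, in which a difference of 1 is a 2-fold change. Among 612 negative controls the middle value was 4.80, and their 95th percentile, 8.31, serves below as a mark for signal above background (the negative control mark). Of the 45 members, 7 had every group mean above that mark (ITGA5, ITGAV, ITGAE, ITGB1, ITGB5, CDH2 and CDH11). In another 4 (ITGA3, ITGA7, ITGA11 and ITGB8) some group means were above it. The other 34, which are 15 integrins and 19 cadherins, had group means of 3.60 to 7.38, under the mark in every group. Differences that reach below the mark are given on the log2 scale without a fold. Array medians ran from 6.95 to 6.99. The lowest correlation between arrays of a group over all genes was 0.982 in DED, between arrays 1 and 3, 0.992 in MA and 0.992 in MSC.

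The labelled cell types were checked with short marker lists. RMA sets all arrays to 1 distribution, so a shift of all genes cannot be seen. The mean of 5 adipocyte markers ran from 10.56 to 12.39 over DED arrays, 13.48 to 13.65 over MA arrays and 5.01 to 5.31 over MSC arrays. Within DED it was highest in array 1 (12.39) and lowest in array 3 (10.56). The mean of 3 mesenchymal stem cell markers ran from 12.47 to 12.98 over DED arrays, 12.39 to 12.59 over MA arrays and 13.34 to 13.55 over MSC arrays, all 3 being above the negative control mark in every group. THY1 averaged 12.80 ± 0.35 in DED, 12.04 ± 0.14 in MA and 13.59 ± 0.09 in MSC. It differed by -1.55 in MA against MSC (limma adjusted p = 1.9e-08) and by 0.76 in DED against MA (adjusted p = 0.00031). ENG differed by -1.18 in MA against MSC (adjusted p = 3.9e-08) and by 0.74 in DED against MA (adjusted p = 3.4e-05), so both moved in the directions of ITGA11, CDH2 and CDH11 below. NT5E fell in DED against MA (-0.70, adjusted p = 0.00014) and did not pass in MA against MSC (-0.09, adjusted p = 0.64). The part of these markers in the results was not tested. Of 8 epithelial markers, 1 fell in MA against MSC, 0 changed in DED against MA and 1 rose in DED against MSC. These shares of 12.5%, 0% and 12.5% compare with 33%, 25.9% and 33.4% of all genes. In DED against MA, ESRP1 did not pass in the reported fit. It passed with array weights (0.39, limma adjusted p = 0.049), without MA array 2 (0.44, adjusted p = 0.022) and without DED array 5 (0.42, adjusted p = 0.032). Of the 8 epithelial markers 7 were under the negative control mark in all 3 groups, EPCAM at 4.35 in DED, 4.21 in MA and 4.24 in MSC. All 4 measured leukocyte and all 4 skeletal muscle markers were under it in every group, with list means of 6.52 to 6.70 in DED, 6.08 to 6.36 in MA and 6.06 to 6.41 in MSC for leukocytes. Among them CD14 averaged 6.91 ± 0.58 in DED, 5.51 ± 0.25 in MA and 5.51 ± 0.35 in MSC, and was 1.40 higher in DED than in MA (SE 0.23, limma adjusted p = 7.6e-05). Of 5 endothelial markers 5 were under it in DED, 5 in MA and 4 in MSC, the exception being TEK (10.62 ± 0.10 in MSC). In bulk RNA, fewer cells of a type and less RNA per cell cannot be told apart.

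Promoter sequences are shown for 3 members with large changes that differ in pattern: ITGB8, which was high in both differentiated groups, ITGA11, which was low in MA alone, and CDH2, which was highest in MSC. They are the 250 bases before the annotated start from RefSeq (GRCh38.p14), 5′ to 3′ on the strand of the gene. RefSeq windows were held for 26 of the 45 members and for 5 of the 7 whose values are given below in every array under the naming rule. The windows lie at chr7:20330650-20330899 on the plus strand (ITGB8), chr15:68432164-68432413 on the minus strand (ITGA11) and chr18:28177131-28177380 on the minus strand (CDH2, the more upstream of 2 starts). Capitals mark matches, on either strand, to the GC box GGGCGG bound by Sp and KLF factors (read in reverse in all 3 matches shown) or to the E2 box CAGGTG bound by SNAI and ZEB factors.
ITGB8: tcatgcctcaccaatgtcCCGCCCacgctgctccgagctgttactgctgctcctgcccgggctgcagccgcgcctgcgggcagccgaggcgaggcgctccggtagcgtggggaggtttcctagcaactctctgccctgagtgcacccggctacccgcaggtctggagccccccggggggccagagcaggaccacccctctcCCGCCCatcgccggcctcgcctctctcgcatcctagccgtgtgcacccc
ITGA11: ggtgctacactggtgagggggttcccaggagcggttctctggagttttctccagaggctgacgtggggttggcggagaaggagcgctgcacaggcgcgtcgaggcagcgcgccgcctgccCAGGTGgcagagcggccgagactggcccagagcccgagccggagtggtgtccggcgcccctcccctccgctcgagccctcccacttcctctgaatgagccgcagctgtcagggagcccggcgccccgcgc
CDH2: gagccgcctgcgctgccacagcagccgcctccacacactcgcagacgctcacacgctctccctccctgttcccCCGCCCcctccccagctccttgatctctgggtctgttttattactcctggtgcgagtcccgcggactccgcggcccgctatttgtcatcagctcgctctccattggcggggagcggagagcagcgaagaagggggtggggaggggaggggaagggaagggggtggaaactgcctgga

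The windows were rich in G and C, at 71.2% in ITGB8, 71.2% in ITGA11 and 66.0% in CDH2. The GC box matched at 2 places in ITGB8, beginning at -232 and -49 from the start, and at 1 place in CDH2, at -177. The E2 box matched once in ITGA11, at -130. Of 35116 RefSeq windows of this length, 42.6% hold a GC box and 17.5% an E2 box, so both are common. None of the 3 windows held the AP-1 motif TGANTCA, which 6.57% of windows hold. The cyclic AMP response element TGACGTCA (1.65%), the TATA box TATAAA (10.7%) and the DR1 element of PPAR and RXR (0.0171%) were not matched either. These are matches of letters and not shown to be bound.

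In MA against MSC, the step of differentiation, ITGB8 and the laminin receptor chains ITGA7 and ITGA3 rose, while N-cadherin, the collagen receptor chain ITGA11 and the fibronectin and RGD receptor chains ITGA5, ITGAV and ITGB1 fell. By limma with Benjamini-Hochberg adjustment over all genes at 0.05, 6 members rose, 9 fell and 30 did not pass. The changed share was 33.3% against 33% of all genes tested (15.4% rose and 17.6% fell), so the set as a whole changed about as often as the background. Its median log2 difference was -0.03 against -0.00 for all genes. Integrins changed in 11 of 24 cases (5 rose, 6 fell, median -0.13) and cadherins in 4 of 21 (1 rose, 3 fell, median 0.03). By 2-fold or more 3 members rose and 5 fell, where 5.07% of all genes rose and 5.18% fell.

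In DED against MA, which differ in the conditioning of the medium, ITGA11, ITGA8, ITGB8, N-cadherin and CDH11 rose. ITGA3, ITGA7, ITGA2, ITGB3 and CDH18 fell. In all, 5 members rose, 5 fell and 35 did not pass. The changed share of 22.2% compares with 25.9% of all genes (12.9% rose and 13% fell). The median was 0.06 against 0.02 for all genes. Integrins changed in 7 of 24 cases (3 rose, 4 fell, median 0.07) and cadherins in 3 of 21 (2 rose, 1 fell, median -0.01). By 2-fold or more 4 rose (ITGA11, ITGA8, ITGB8 and CDH2) and 2 fell (ITGA3 and ITGA7), where 2.8% of all genes rose and 3.48% fell.

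In DED against MSC, 4 members rose and 9 fell, a changed share of 28.9% against 33.4% of all genes (17.1% rose and 16.4% fell). The median was -0.06 against 0.03 for all genes. Integrins changed in 10 of 24 cases (3 rose, 7 fell) and cadherins in 3 of 21 (1 rose, 2 fell). The 2-fold changes were 2 rises (ITGA8 and ITGB8) and 6 falls (ITGA2, ITGA3, ITGA5, ITGAV, CDH2 and CDH18), where 4.96% of all genes rose and 5.68% fell. The comparisons share arrays, DED against MA and MA against MSC having the MA arrays in common, so their values are not independent of each other.

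**Figure D1:**
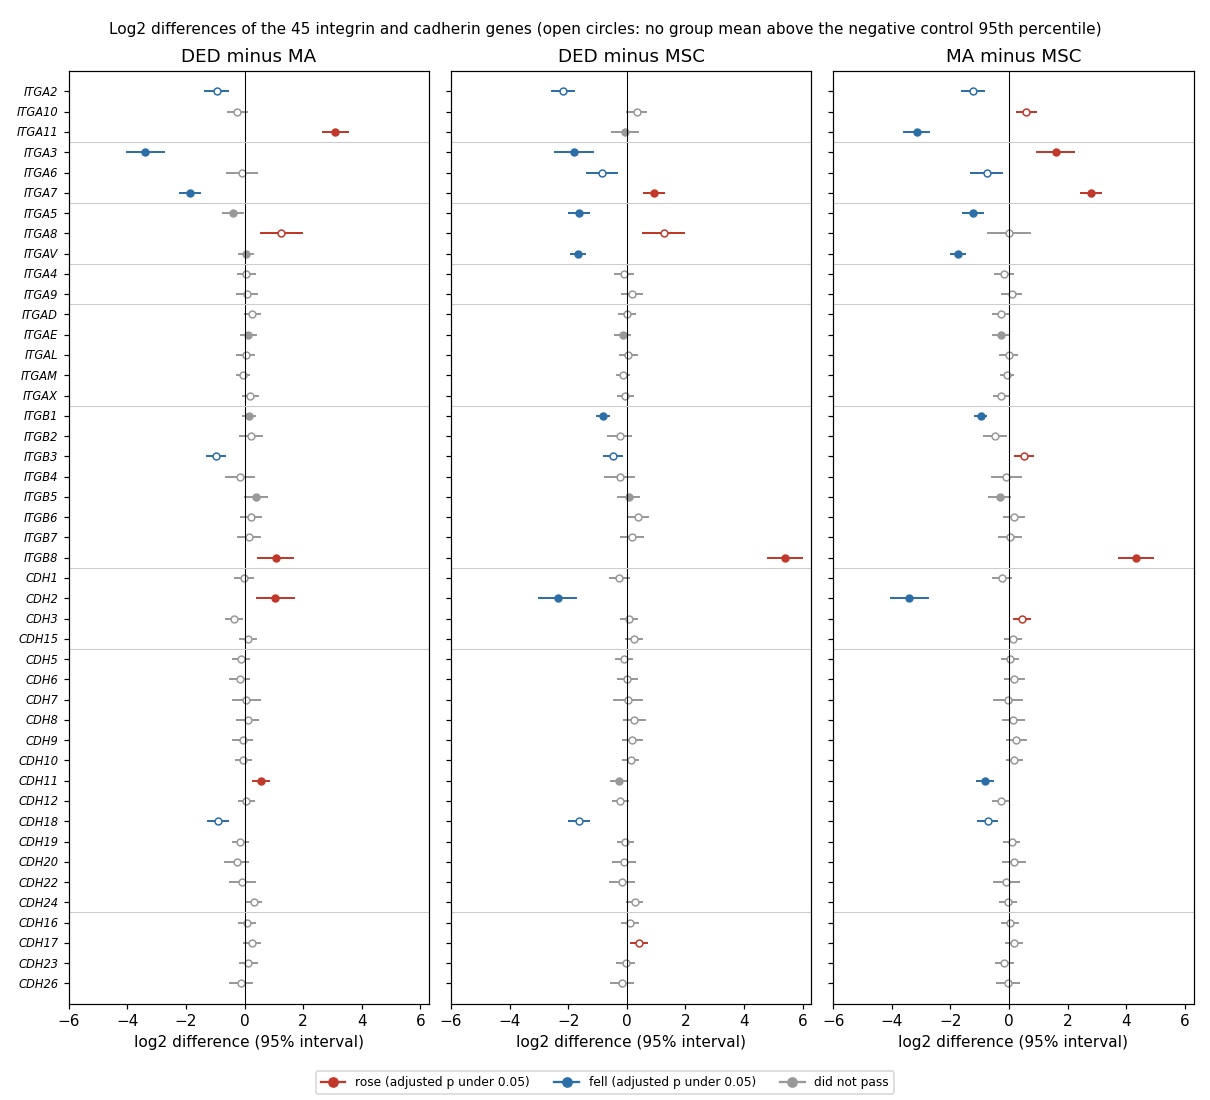
Log2 differences of the 45 members in the 3 comparisons, with unadjusted 95% intervals from the limma fit (n = 5 arrays a group); red rose, blue fell and grey did not pass at an adjusted p of 0.05, and open circles have no group mean above the negative control 95th percentile. ITGB8 (5.40 in DED minus MSC) and CDH2 (-3.40 in MA minus MSC) lie far from 0, while most cadherins cross it in all 3 panels.

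Among the collagen-binding alpha chains, ITGA11 had the largest difference in MA against MSC and in DED against MA, and ITGA2 in DED against MSC. Its protein is a receptor for fibrillar collagen typical of fibroblasts. ITGA11 read 9.27, 10.17, 10.67, 10.19 and 9.87 in DED arrays 1 to 5, 6.62, 7.22, 7.49, 6.48 and 6.85 in MA, and 10.14, 10.09, 9.97, 10.13 and 10.09 in MSC. All DED and MSC arrays lay above all MA arrays, and the MSC values fell inside the DED range. The gene fell by 3.15 in MA against MSC (log2, SE 0.21, limma adjusted p = 2.2e-10) and rose by 3.10 in DED against MA (SE 0.21, adjusted p = 7.5e-10). Between DED and MSC the difference was -0.05 (95% interval -0.49 to 0.39, adjusted p = 0.89), which does not show that the levels were equal. The MA mean, 6.93, was under the negative control mark.

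ITGA2, the chain of another collagen receptor, was under the mark throughout. It averaged 4.26 ± 0.33 in DED, 5.22 ± 0.32 in MA and 6.44 ± 0.32 in MSC (SD, n = 5 each). It fell in MA against MSC (-1.22, SE 0.18, adjusted p = 1.8e-05) and in DED against MA (-0.96, SE 0.18, adjusted p = 0.00044), and no 2 groups overlapped. Its fall in DED against MSC was -2.18 (SE 0.18, adjusted p = 5.8e-09). ITGA10, a collagen receptor chain best known from cartilage, was 5.67 ± 0.17 in DED, 5.92 ± 0.38 in MA and 5.33 ± 0.19 in MSC. It rose by 0.59 in MA against MSC (SE 0.16, adjusted p = 0.0053), with overlapping arrays.

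Both larger changes among the laminin-binding chains ran opposite to ITGA11. ITGA7, known as the laminin receptor chain of muscle, read 7.78, 7.78, 7.33, 7.24 and 7.15 in DED arrays 1 to 5, 9.38, 9.07, 9.32, 9.85 and 9.01 in MA, and 6.79, 6.3, 6.37, 6.5 and 6.65 in MSC. The 3 groups did not overlap, with DED between the others. ITGA7 rose by 2.80 in MA against MSC (SE 0.16, adjusted p = 3.4e-11) and fell by 1.87 in DED against MA (SE 0.16, adjusted p = 3.3e-08). It was 0.93 higher in DED than in MSC (SE 0.16, adjusted p = 0.00012). The DED and MSC means were under the negative control mark.

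ITGA3, a laminin receptor chain that also binds tetraspanins, read 7.07, 5.57, 7.77, 6.17 and 5.84 in DED arrays 1 to 5, 9.94, 9.51, 10.09, 9.98 and 9.84 in MA, and 8.16, 8.89, 7.92, 8.02 and 8.40 in MSC. Every DED array lay below every MSC array and every MA array above them. DED array 3 came close to the lowest MSC array. ITGA3 rose by 1.59 in MA against MSC (SE 0.31, adjusted p = 0.00031), fell by 3.39 in DED against MA (SE 0.31, adjusted p = 4.6e-08) and was 1.79 lower in DED than in MSC (-1.79, SE 0.31, adjusted p = 8.4e-05). Its DED and MSC means (6.48 and 8.28) were under the mark.

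ITGA6, the remaining laminin receptor chain, averaged 6.03 ± 0.64 in DED, 6.11 ± 0.39 in MA and 6.87 ± 0.30 in MSC. It fell in MA against MSC (-0.76, SE 0.25, adjusted p = 0.021), with overlapping arrays. That call was lost without MSC array 2 or 5 or MA array 1 or 3 (adjusted p = 0.051 to 0.062). Its fall in DED against MSC was -0.84 (SE 0.25, adjusted p = 0.011).

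The fibronectin receptor chain ITGA5 read 12.14, 12.40, 13.37, 12.54 and 12.53 in DED arrays 1 to 5, 13.05, 13.02, 12.95, 13.10 and 12.86 in MA, and 14.28, 14.41, 14.09, 14.09 and 14.22 in MSC. All MSC arrays were above all others, and DED lay below MA in 4 of 5 arrays, with array 3 above the MA range. ITGA5 was 2.33-fold lower in MA than in MSC (log2 difference -1.22, SE 0.16, adjusted p = 5.2e-06) and 3.08-fold lower in DED than in MSC (-1.62, SE 0.16, adjusted p = 9.9e-08). In DED against MA it was at -0.40 (SE 0.16, adjusted p = 0.083). Without DED array 3 that difference was -0.59 (adjusted p = 0.00056), without DED arrays 1 and 3 together it was -0.51 (adjusted p = 0.0024), and with array weights it was -0.45 (adjusted p = 0.016).

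ITGAV, the alpha chain shared by the vitronectin and TGF-beta activating receptors, read 11.03, 11.14, 10.97, 10.91 and 11.39 in DED arrays 1 to 5, 11.22, 11, 11.14, 11 and 10.81 in MA, and 12.59, 12.75, 12.69, 12.97 and 12.81 in MSC. DED and MA overlapped and both lay below MSC. ITGAV was 3.31-fold lower in MA than in MSC (-1.73, SE 0.12, adjusted p = 2.7e-10) and 3.19-fold lower in DED than in MSC (-1.67, SE 0.12, adjusted p = 3.7e-10). DED minus MA was 0.05 (95% interval -0.19 to 0.30, adjusted p = 0.80).

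ITGA8, the receptor chain for nephronectin, is known from kidney and contractile cells. It lies outside the rule for values in every array, since its group means are under the mark, and is given so after its values were seen. ITGA8 read 6.14, 6.42, 8.66, 7.39 and 6.16 in DED arrays 1 to 5, against 5.51 to 5.92 in MA and 5.36 to 6.09 in MSC. All DED arrays exceeded all MA and MSC arrays, arrays 1 and 5 narrowly, and array 3 alone passed the negative control mark. ITGA8 rose by 1.25 in DED against MA (SE 0.34, adjusted p = 0.0086) and by 1.26 against MSC (SE 0.34, adjusted p = 0.0061). Without DED array 3 the differences were 0.83 (adjusted p = 0.0067) and 0.83 (adjusted p = 0.0044). Beside it NPNT, which encodes nephronectin, averaged 9.42 ± 0.82 in DED, 6.10 ± 0.31 in MA and 5.97 ± 0.32 in MSC, a rise of 3.32 in DED against MA (SE 0.28, adjusted p = 2.0e-08).

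ITGA4 and ITGA9, whose proteins bind VCAM1 and tenascin among others, passed in no comparison. ITGA4 was 7.26 ± 0.28 in DED, 7.19 ± 0.27 in MA and 7.36 ± 0.10 in MSC, and ITGA9 was 4.96 ± 0.15, 4.88 ± 0.42 and 4.78 ± 0.14 in the same order of groups. The leukocyte chains ITGAD, ITGAL, ITGAM and ITGAX had group means of 4.14 to 5.76 and no call in any comparison. ITGAE, the chain that binds E-cadherin on intraepithelial lymphocytes, was far above the mark, at 13.11 ± 0.25 in DED, 12.98 ± 0.15 in MA and 13.26 ± 0.09 in MSC. It did not pass in the reported fit (MA against MSC -0.28, adjusted p = 0.092), but did with an intensity trend and robust fit (adjusted p = 0.046) and when only these groups were fitted (adjusted p = 0.049). Its known partner ITGB7 averaged 6.17 in DED, 6.03 in MA and 5.99 in MSC, under the mark.

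**Figure D2:**
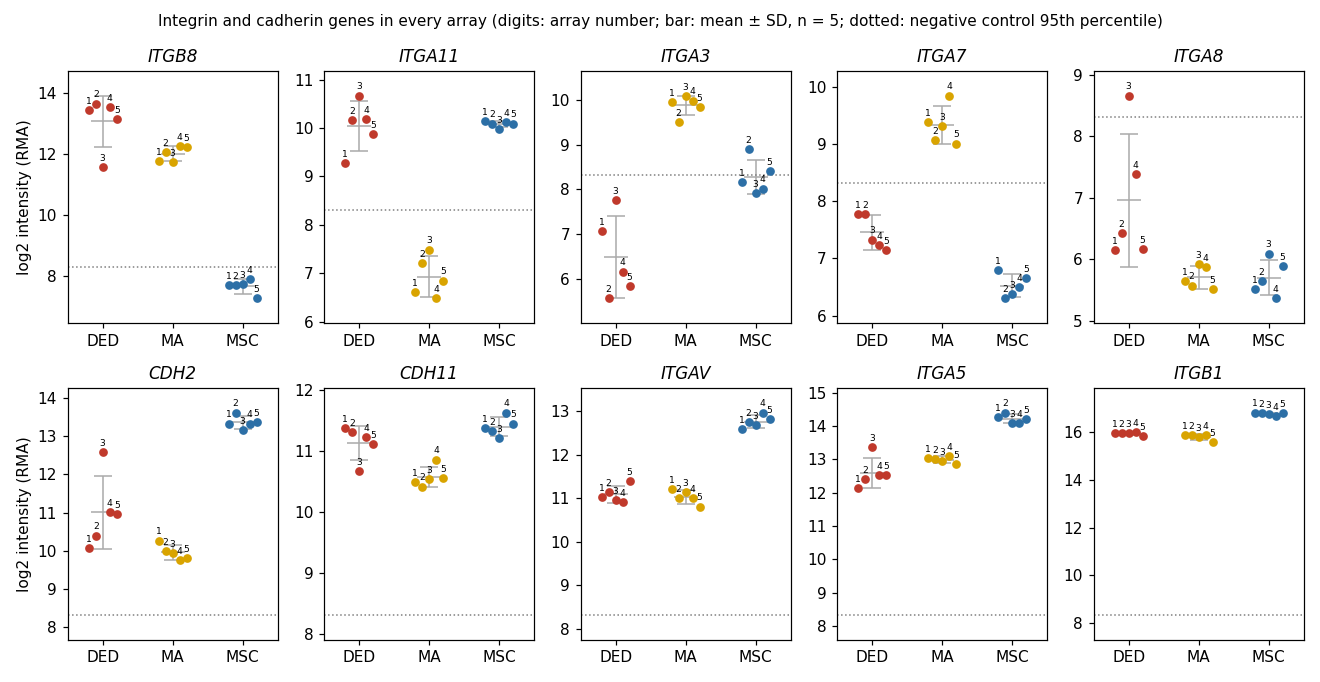
RMA log2 intensity of 10 members in each array, with DED, MA and MSC from left to right, digits for the array number, bars for mean ± SD (n = 5) and a dotted line at the negative control 95th percentile of 8.31. ITGA11 is low in MA alone, ITGB8 is low in MSC alone, and DED array 3 stands off the other DED arrays in ITGB8 (11.59), ITGA8 (8.66) and CDH2 (12.58).

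Among the beta chains, ITGB8 had the largest measured rise of the members in MA against MSC and in DED against MSC. ITGB8 read 13.44, 13.66, 11.59, 13.53 and 13.14 in DED arrays 1 to 5, 11.76, 12.08, 11.74, 12.27 and 12.23 in MA, and 7.71, 7.72, 7.74, 7.91 and 7.27 in MSC. All MSC arrays were under the mark and all others far above it. In 4 of 5 DED arrays the value exceeded the MA range, and DED array 3 lay just below that range. ITGB8 rose by 4.35 in MA against MSC (SE 0.28, adjusted p = 1.2e-10) and by 5.40 in DED against MSC (SE 0.28, adjusted p = 3.3e-12). DED exceeded MA 2.08-fold (log2 difference 1.06, SE 0.28, adjusted p = 0.0071), with array 3 making the groups overlap. Its partner ITGAV moved the other way in both comparisons with MSC, as given above.

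ITGB1, the beta chain of most collagen, laminin and fibronectin receptors, ran from 15.86 to 16.01 in DED, 15.59 to 15.89 in MA and 16.68 to 16.83 in MSC. MSC stood above both other groups in every array. ITGB1 was 1.96-fold lower in MA than in MSC (-0.97, SE 0.09, adjusted p = 5.7e-08) and 1.76-fold lower in DED than in MSC (-0.82, SE 0.09, adjusted p = 5.5e-07). DED minus MA was 0.15 (95% interval -0.05 to 0.35, adjusted p = 0.28).

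ITGB3, a beta chain of the vitronectin receptor, was highest in MA, as ITGA7 and ITGA3 were. It averaged 6.40 ± 0.20 in DED, 7.38 ± 0.30 in MA and 6.87 ± 0.25 in MSC. It rose by 0.51 in MA against MSC (SE 0.15, adjusted p = 0.012) and fell by 0.98 in DED against MA (SE 0.15, adjusted p = 4.5e-05), which left no overlap between DED and MA. Its fall in DED against MSC (-0.47, SE 0.15, adjusted p = 0.020) was lost without MSC array 2 (adjusted p = 0.064) or DED array 4 (adjusted p = 0.066).

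ITGB5, another partner of the ITGAV chain, averaged 9.41 ± 0.44 in DED, 9.02 ± 0.21 in MA and 9.34 ± 0.21 in MSC and did not pass. In DED against MA its difference of 0.39 (adjusted p = 0.11) became 0.49 without DED array 3 (adjusted p = 0.048) and 0.56 with array weights (adjusted p = 0.023). ITGB2, the leukocyte beta chain, was 5.75 ± 0.19 in DED, 5.53 ± 0.39 in MA and 6.0 ± 0.36 in MSC. Its difference of -0.46 in MA against MSC (adjusted p = 0.057) passed under 7 alternatives, among them quantile normalization (adjusted p = 0.032) and the fit without MA array 1 (adjusted p = 0.0079). ITGB4 and ITGB6, both typical of epithelia, and ITGB7 had group means of 4.35 to 6.17 and did not pass in any comparison, except that ITGB6 passed in DED against MSC without DED array 3 (0.47, adjusted p = 0.039).

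CDH2, which encodes N-cadherin, had the largest measured fall of the members in MA against MSC, ahead of ITGA11, whose MA mean lies under the negative control mark and leaves that order uncertain. CDH2 read 10.08, 10.40, 12.58, 11.01 and 10.96 in DED arrays 1 to 5, 10.27, 10.00, 9.95, 9.76 and 9.81 in MA, and 13.33, 13.62, 13.16, 13.33 and 13.37 in MSC. MSC lay above every other array. DED array 1 was inside the MA range and array 3 far above it. CDH2 was 10.6-fold lower in MA than in MSC (-3.40, SE 0.30, adjusted p = 1.5e-08). It was 2.07-fold higher in DED than in MA (1.05, SE 0.30, adjusted p = 0.013), and still 5.12-fold lower in DED than in MSC (-2.36, SE 0.30, adjusted p = 2.3e-06). Without DED array 3 the difference between DED and MA was 0.65 (adjusted p = 0.0076). DED array 1, the lowest in CDH2, had the highest adipocyte marker mean of the DED arrays (12.39), and array 3, the highest in CDH2, the lowest (10.56). Their part in the result was not tested.

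CDH11, the osteoblast cadherin of mesenchymal cells, changed in the same directions by less. It ran from 10.67 to 11.37 in DED, 10.42 to 10.86 in MA and 11.21 to 11.63 in MSC, with DED array 3 the lowest of DED and inside the MA range. CDH11 was 1.77-fold lower in MA than in MSC (-0.82, SE 0.13, adjusted p = 5.0e-05) and 1.48-fold higher in DED than in MA (0.56, SE 0.13, adjusted p = 0.0031). DED minus MSC was -0.26 (95% interval -0.54 to 0.02, adjusted p = 0.15). Unlike in CDH2, DED array 3 was the lowest DED array here.

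CDH18, a type II cadherin known from the nervous system, fell in all 3 comparisons and was under the mark in all groups. It averaged 5.74 ± 0.23 in DED, 6.65 ± 0.29 in MA and 7.37 ± 0.28 in MSC, without overlap between any 2 groups. Its falls were 0.73 in size in MA against MSC (-0.73, SE 0.16, adjusted p = 0.0010) and 0.91 in DED against MA (-0.91, SE 0.16, adjusted p = 0.00017).

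Small changes were also called in CDH3 and CDH17. CDH3 (P-cadherin) averaged 6.33 ± 0.19 in DED, 6.68 ± 0.21 in MA and 6.25 ± 0.23 in MSC. It rose by 0.44 in MA against MSC (SE 0.13, adjusted p = 0.015), a call lost without MSC array 4 (adjusted p = 0.054). In DED against MA it was at -0.36 (adjusted p = 0.058) and passed without MA array 3 (adjusted p = 0.028), without DED array 4 (adjusted p = 0.042) or with dim genes left out (adjusted p = 0.044). CDH17, a cadherin of intestinal epithelium, averaged 5.43 ± 0.20 in DED, 5.16 ± 0.20 in MA and 5.0 ± 0.21 in MSC and rose by 0.43 in DED against MSC (SE 0.13, adjusted p = 0.014).

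The other 16 cadherins did not pass in any comparison. They include CDH1 (E-cadherin of epithelia), at 4.51 ± 0.36 in DED, 4.52 ± 0.07 in MA and 4.76 ± 0.22 in MSC, and CDH5 (VE-cadherin of endothelium), at 4.38 ± 0.08, 4.5 ± 0.29 and 4.46 ± 0.16 in the same order. Both were under the median of the negative controls in every group. CDH15, the muscle cadherin, was 4.89 ± 0.23 in DED, 4.77 ± 0.26 in MA and 4.64 ± 0.07 in MSC. The remaining 13 are CDH6 to CDH10, CDH12, CDH19, CDH20, CDH22, CDH24, CDH16, CDH23 and CDH26. Over all 28 members without a call, the largest difference in size was 0.464, that of ITGB2 in MA against MSC. The groups of arrays did not overlap in 11 members in MA against MSC, 7 in DED against MA and 10 in DED against MSC, where 27%, 18.1% and 25.1% of all genes did not overlap.

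Ligands and other partners of these receptors were described by lists, which were chosen with earlier results of these data known. Changed shares of the lists are given for MA against MSC, DED against MA and DED against MSC, in that order. Over all genes they were 33%, 25.9% and 33.4%, and no list was tested against them. Several genes named from the lists also had group means under the negative control mark of 8.31. Of 16 RGD and related ligands, 3 rose and 5 fell in MA against MSC (median -0.14), 6 rose and 3 fell in DED against MA (median 0.35), and 6 rose and 4 fell in DED against MSC (median 0.22). The changed shares were 50%, 56.2% and 62.5%. EDIL3, an RGD protein bound by ITGAV receptors, averaged 12.56 ± 0.20 in DED, 9.82 ± 0.32 in MA and 11.55 ± 0.22 in MSC and rose by 2.74 in DED against MA (SE 0.15, adjusted p = 4.6e-11). MFGE8, its relative, was 14.30 ± 0.29 in DED, 14.80 ± 0.08 in MA and 10.22 ± 0.13 in MSC, and rose by 4.58 in MA against MSC (SE 0.13, adjusted p = 5.0e-16). The mRNA of TGFB3, whose latent form is a substrate of the ITGAV and ITGB8 receptor, was 6.68 ± 0.22 in DED, 6.59 ± 0.29 in MA and 9.21 ± 0.35 in MSC. It fell by 2.62 in MA against MSC (SE 0.17, adjusted p = 1.3e-10). LTBP1, which anchors latent TGF-beta in the matrix, was 11.66 ± 0.59 in DED, 13.05 ± 0.15 in MA and 13.04 ± 0.07 in MSC, a fall of 1.39 in DED against MA (-1.39, SE 0.20, adjusted p = 1.5e-05).

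Of 7 measured laminin chains 5 rose and 1 fell in MA against MSC (median 0.98), 0 rose and 4 fell in DED against MA (median -0.40), and 4 rose and 1 fell in DED against MSC (median 0.53). That is 85.7%, 57.1% and 71.4% changed, against 33%, 25.9% and 33.4% of all genes. For the rises in DED against MA, limma's count at an unadjusted p under 0.05 was also 0. The 4 falls in DED against MA became 2 without MA array 4 or DED array 4, as LAMA1 (adjusted p = 0.056 and 0.050) and LAMA2 (adjusted p = 0.054 and 0.074) no longer passed. LAMA2 was also lost without MA array 1 or 2 or DED array 3 or 5 (adjusted p = 0.055 to 0.080). LAMA4, the laminin chain typical of adipose and vessel basement membrane, averaged 11.31 ± 0.64 in DED, 13.28 ± 0.10 in MA and 9.88 ± 0.45 in MSC. It rose by 3.39 in MA against MSC (SE 0.24, adjusted p = 6.3e-10) and fell by 1.97 in DED against MA (SE 0.24, adjusted p = 2.9e-06), in the same directions as the laminin receptor chains ITGA7 and ITGA3. Unlike ITGA3, LAMA4 was higher in DED than in MSC (1.43, SE 0.24, adjusted p = 7.9e-05). LAMA1, the 1 chain that fell in MA against MSC, went against both receptor chains there (-1.19, SE 0.24, adjusted p = 0.00043). LAMB1 was 14.15 ± 0.36 in DED, 14.16 ± 0.12 in MA and 11.81 ± 0.16 in MSC. It rose by 2.36 in MA against MSC (SE 0.14, adjusted p = 6.8e-11) and did not pass in DED against MA (-0.01, adjusted p = 0.97).

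Of 8 measured collagen genes 2 rose and 3 fell in MA against MSC (median -0.21), 0 rose and 5 fell in DED against MA (median -0.58, with 0 rises also by limma at an unadjusted p under 0.05), and 2 rose and 6 fell in DED against MSC (median -1.15). The list changed in 62.5%, 62.5% and 100% of its genes, against 33%, 25.9% and 33.4% of all genes. COL1A1, a fibrillar collagen bound by the ITGA11 receptor, was 12.62 ± 0.24 in DED, 13.31 ± 0.04 in MA and 15.41 ± 0.15 in MSC. It fell by 0.69 in DED against MA (-0.69, SE 0.12, adjusted p = 0.00014), the comparison in which ITGA11 rose by 3.10. COL6A3 was 14.42 ± 0.19 in DED, 15.94 ± 0.15 in MA and 16.23 ± 0.08 in MSC, and fell by 1.52 in DED against MA (SE 0.11, adjusted p = 1.9e-09).

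Of 9 immunoglobulin-like counter-receptors 2 rose and 1 fell in MA against MSC (median 0.04), 2 rose and 1 fell in DED against MA (median 0.18), and 3 rose and 0 fell in DED against MSC (median -0.02). A share of 33.3% changed in each comparison, against 33%, 25.9% and 33.4% of all genes, so the list changed about as often as the background. For the falls in DED against MSC, the limma count at an unadjusted p under 0.05 was also 0. In MA against MSC the fall was that of ICAM1, lost in 6 of 10 fits that left out 1 array (MSC 1, 3 or 5 or MA 3, 4 or 5; adjusted p = 0.052 to 0.087), and the rise of ICAM2 was lost without MA array 3 (adjusted p = 0.051). In DED against MSC 1 gene fell without DED array 3. JAM2, a junction protein that can bind leukocyte integrins, averaged 8.91 ± 0.71 in DED, 6.72 ± 0.09 in MA and 5.90 ± 0.25 in MSC, a rise of 2.19 in DED against MA (SE 0.23, adjusted p = 4.9e-07). VCAM1, a ligand of the ITGA4 receptor, was 8.41 ± 0.43 in DED, 7.46 ± 0.23 in MA and 7.30 ± 0.23 in MSC, a rise of 0.95 in DED against MA (SE 0.18, adjusted p = 0.00033).

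**Figure D3:**
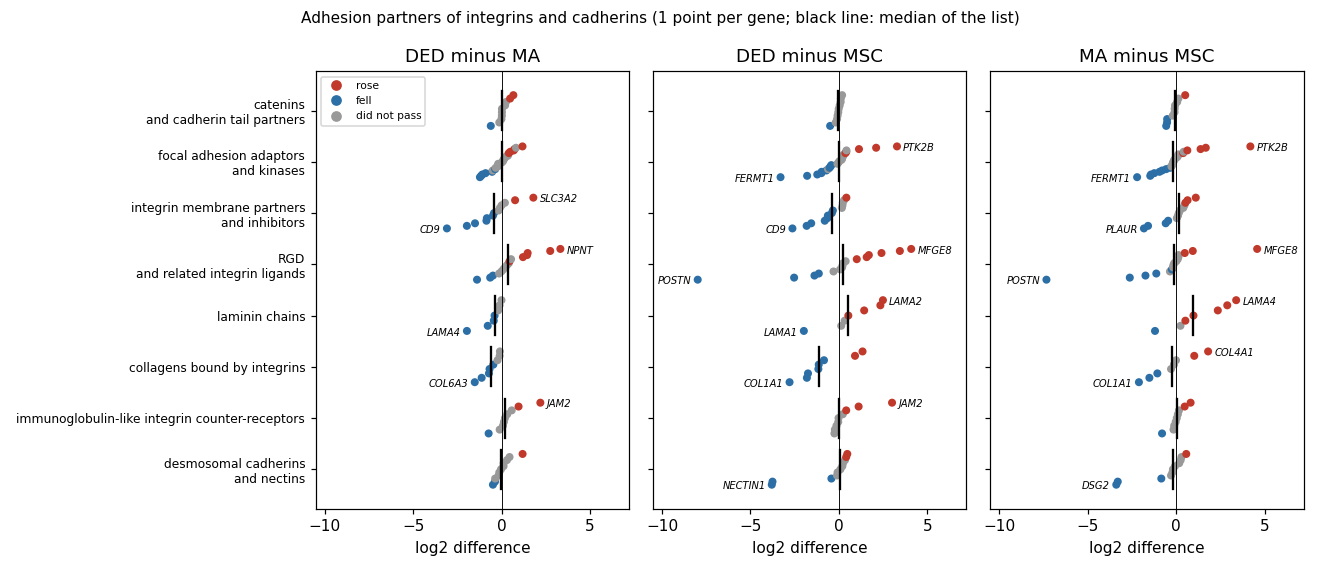
Log2 differences of the ligands, membrane partners, adaptors, catenins and related cadherins in the 3 comparisons, 1 point per gene, with the list median as a black line and colours as for the members. CD9 (-3.10) and NPNT (3.32) mark the ends in DED minus MA, and POSTN (-7.33) and MFGE8 (4.58) in MA minus MSC. CD9 was under the negative control mark in every group, and NPNT was under it in MA and MSC.

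Among 13 membrane partners and inhibitors of integrins, 3 rose and 4 fell in MA against MSC (median 0.15), 2 rose and 7 fell in DED against MA (median -0.43), and 1 rose and 8 fell in DED against MSC (median -0.40). Changed shares were 53.8%, 69.2% and 69.2%, against 33%, 25.9% and 33.4% of all genes. The rise in DED against MSC was that of CD82, lost in 6 of 10 fits without 1 array (MSC 1, 2 or 3 or DED 3, 4 or 5; adjusted p = 0.061 to 0.10), and in MA against MSC 5 rose without MA array 4. The tetraspanin CD9, which binds ITGA3 and related receptors, averaged 4.89 ± 0.34 in DED, 7.99 ± 0.39 in MA and 7.52 ± 0.21 in MSC. CD9 was thus under the negative control mark in every group. It fell by 3.10 in DED against MA (SE 0.18, adjusted p = 1.2e-10), a comparison in which ITGA3 fell by 3.39. The tetraspanin CD81 was 12.07 ± 0.40 in DED, 13.58 ± 0.04 in MA and 12.47 ± 0.10 in MSC and fell by 1.51 in DED against MA (SE 0.15, adjusted p = 1.1e-07). CAV1, the coat protein of caveolae, was 12.06 ± 0.47 in DED, 14.03 ± 0.09 in MA and 13.62 ± 0.18 in MSC, and fell by 1.97 in DED against MA (SE 0.17, adjusted p = 2.4e-08). SLC3A2, the CD98 heavy chain that binds integrin beta tails and carries amino acid transporters, rose by 1.79 (SE 0.20, adjusted p = 1.1e-06), to 14.56 ± 0.62 in DED against 12.77 ± 0.18 in MA.

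Of 24 measured focal adhesion adaptors and kinases, 5 rose and 8 fell in MA against MSC (median -0.15), 5 rose and 6 fell in DED against MA (median 0.04), and 5 rose and 9 fell in DED against MSC (median 0.00). Together 54.2%, 45.8% and 58.3% changed, against 33%, 25.9% and 33.4% of all genes. PTK2B, the kinase PYK2 related to focal adhesion kinase, averaged 10.11 ± 0.25 in DED, 11.02 ± 0.07 in MA and 6.83 ± 0.35 in MSC and rose by 4.20 in MA against MSC (SE 0.15, adjusted p = 1.9e-14). FERMT1, a kindlin that activates integrins, was 5.56 ± 0.27 in DED, 6.66 ± 0.07 in MA and 8.86 ± 0.21 in MSC and fell by 2.21 in MA against MSC (SE 0.13, adjusted p = 4.2e-11). Its DED and MA means were under the negative control mark. FERMT2, another kindlin given outside the naming rule, was brighter, at 12.94 ± 0.32 in DED, 12.78 ± 0.06 in MA and 12.66 ± 0.09 in MSC. It passed in no comparison. PXN, the adaptor paxillin, was 7.87 ± 0.42 in DED and 9.10 ± 0.29 in MA, a fall of 1.23 (-1.23, SE 0.17, adjusted p = 1.8e-05). ACTN1, the actin crosslinker alpha-actinin, was 14.38 ± 0.63 in DED and 13.20 ± 0.16 in MA, a rise of 1.18 (SE 0.21, adjusted p = 0.00021).

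Catenins link the cadherin tail to actin. Of 10 measured catenins and partners 1 rose and 3 fell in MA against MSC (median -0.09), 2 rose and 1 fell in DED against MA (median 0.01), and 0 rose and 1 fell in DED against MSC (median -0.02). Shares of 40%, 30% and 10% changed, against 33%, 25.9% and 33.4% of all genes. For the rises in DED against MSC, the count by limma at an unadjusted p under 0.05 was also 0. CTNNA1, alpha-catenin, was 11.10 ± 0.29 in DED, 10.63 ± 0.19 in MA and 11.14 ± 0.20 in MSC. It fell by 0.51 in MA against MSC (-0.51, SE 0.14, adjusted p = 0.0076) and rose by 0.48 in DED against MA (SE 0.14, adjusted p = 0.016), the directions of CDH2 and CDH11. VCL (vinculin), which binds alpha-catenin and talin, fell by 0.62 in DED against MA (-0.62, SE 0.12, adjusted p = 0.00066), to 12.50 ± 0.27 in DED against 13.12 ± 0.13 in MA.

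Desmosomal cadherins and nectins are the adhesion receptors of neighbouring junctions. Of 11 desmosomal cadherins and nectins 1 rose and 3 fell in MA against MSC (median -0.18), 1 rose and 2 fell in DED against MA (median -0.04), and 2 rose and 3 fell in DED against MSC (median 0.08). Such counts are 36.4%, 27.3% and 45.5% of the list, against 33%, 25.9% and 33.4% of all genes. Single arrays decided several of these counts. The rises in DED against MSC, DSG4 and NECTIN4, became 0 without MSC array 4 (adjusted p = 0.055 and 0.065). The count was 1 without MSC array 1, 2 or 3 or DED array 1, 2 or 3. Without DED array 1 both DSG4 and NECTIN4 were lost (adjusted p = 0.10 and 0.078), and the 1 rise was that of NECTIN3 (0.31, adjusted p = 0.041). In DED against MA the falls became 1 without MA array 1, 2, 4 or 5 or DED array 5, where NECTIN3 was lost (adjusted p = 0.052 to 0.062), and the rises became 2 without MA array 4 or DED array 5. NECTIN3 was also lost without DED array 1 (adjusted p = 0.086), where the fall of DSG2 passed instead (-0.54, adjusted p = 0.018). In MA against MSC the rises became 2 without MA array 1. NECTIN1, an immunoglobulin-like adhesion receptor, averaged 7.51 ± 0.27 in DED, 8.01 ± 0.26 in MA and 11.31 ± 0.15 in MSC and fell by 3.30 in MA against MSC (SE 0.14, adjusted p = 2.9e-13). DSG2, a desmosomal cadherin, was 4.14 ± 0.55 in DED, 4.51 ± 0.15 in MA and 7.89 ± 0.15 in MSC and fell by 3.38 in MA against MSC (SE 0.19, adjusted p = 1.6e-11). DSG2 was under the negative control mark in every group, and in DED and MA also under the median of the negative controls. In DED against MA, NECTIN1 fell by 0.49 (SE 0.14, adjusted p = 0.014) and DSG2 was at -0.37 (adjusted p = 0.17).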

How the data were processed

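RNA of 15 samples of 1 cell line was hybridised to arrays, 5 per group. The authors deposited log2 intensities. Per the submitters' processing notes, RMA and the Transcriptome Analysis Console were used; their versions and the genome build were not found in those notes. Of 24351 probe sets, 17709 carried 1 gene symbol in the platform annotation, and the one with the highest mean stood for each of 17687 genes. Members and gene lists were chosen with earlier results of these data known. Groups came from the labels. Differences were tested with limma 3.58.1 under R 4.3.3 (all arrays, moderated by eBayes, 1 mean per group, two-sided), with Benjamini-Hochberg adjustment over all genes at 0.05. The number of arrays limits the precision. Values in every array are given for members called at 2-fold or more with a group mean above the negative control 95th percentile; from each list, up to 2 rises and 2 falls per comparison could be named. The fit was tested on simulated data. Alternatives covered normalization, dim genes, the variance model, array weights, the groups fitted, a replicate block and each array left out.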

Additional observations from a re-analysis of the deposited data

Results flagged for a closer look

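ITGB8 in DED array 3 was 11.59, apart from the other 4 DED arrays at 13.14 to 13.66. The gap to the nearest array was 0.749 of the range of the group, above Dixon's critical value of 0.71 for 5 samples. It was the only such value in 135 tests of a member within a group, and chance marks about 1 in 20 of such groups.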

How the results depend on the processing

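The counts of members that rose or fell stayed within 1.5 times of the reported ones under every alternative run. Leaving out each array in turn gave 5 to 6 rises and 8 to 10 falls in MA against MSC, 5 to 6 rises and 5 to 6 falls in DED against MA, and 4 to 5 rises and 8 to 9 falls in DED against MSC. Of 2514 member values under the alternatives, 2488 kept their status, called or not called, 7 lost a call, 19 gained one and 0 reversed. Most of the 2488 had no call to keep, as most members did not pass in the reported fit of each comparison. Among them 100 values, called in neither fit, changed sign. Arrays of equal replicate number showed no strong common deviation from their group means, as the 15 correlations of deviations ran from -0.11 to 0.087. Such correlations cannot show whether these arrays shared a culture, which the labels do not say. With the replicate block, 6 members rose and 10 fell in MA against MSC, where ITGB2 gained a call (-0.46, limma adjusted p = 0.044), 5 rose and 5 fell in DED against MA, and 4 rose and 9 fell in DED against MSC. Without DED arrays 1 and 3 together, chosen after seeing the data, ITGB5 was 0.64 higher in DED than in MA (limma adjusted p = 0.010). No member has a second probe set, so the alternative that tested all probe sets singly gave no other difference, though it is counted in the 2514. Signal near the negative controls limits 34 of the 45 members.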

Other observations

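Over the 15 arrays, the genes whose levels ran most like those of a member, among 7003 candidates, were CPNE8 (Pearson r 0.987), TNFAIP6 (0.982) and GARS1 (0.982) for ITGA11. For ITGA7 they were AKR1C1 (0.986), HSDL2 (0.983) and ACSS2 (0.981), and for CDH2 they were UCHL1 (0.993), TMPO (0.991) and TNFRSF12A (0.989). The nearest to CDH11 were SLC30A7 (0.944), VCAN (0.921) and THBS2 (0.918), and those to ITGB3 were LIN7A (0.918), ATP5MC3 (0.901) and PYCARD (0.892). The arrays fall into 3 groups, so the points are not independent and no test is given.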
